A study of Homo sapiens with 4 samples.

Results

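The cells described here are the 362 cells with the highest summed level of 7 ERK output genes among 7233 BT474 cells treated with neratinib, out of 14867 cells in the whole series. BT474 is an established human line of breast cancer cells, positive for the estrogen receptor and with amplified HER2, and the growth medium of all groups was the same serum-containing RPMI. Single-cell RNA-seq libraries were made after 4 h of treatment, with 1 library per group: 200 nM neratinib, which irreversibly inhibits the kinases of EGFR, HER2 and HER4, 100 nM fulvestrant together with 200 nM neratinib (both drugs), 100 nM fulvestrant, which antagonises and degrades the estrogen receptor, and the vehicle DMSO. After filtering there were 3433 cells in the neratinib library, 3800 in the both-drug library, 3394 in the fulvestrant library and 4240 in the DMSO library, where the labels give a target of 3000 cells per sample.

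A cell was a barcode with at least 5000 UMIs (counted RNA molecules), at least 500 detected genes and at most 50% mitochondrial UMIs. The score of a cell was the summed UMIs of CCND1, DUSP4, DUSP6, PHLDA2, PLK2, EGR1 and FOS per 10000 UMIs. The top 5% of each library by this score were taken, giving 172 members in the neratinib library and 190 in the both-drug library; the other cells of the same library are the remaining cells. The 7 genes chose the members, so their levels are a description. With 1 library per group there was no replicate error and nothing was tested. Intervals given below are 95% intervals that cover counting error only, and cells were not used as replicates. The 2 neratinib libraries shared 4 cell barcodes, and no barcode was a member in both.

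HER2 and its partner receptors activate RAS, RAF, MEK and then the kinase ERK, which enters the nucleus and phosphorylates transcription factors. Within minutes this induces immediate early genes such as EGR1 and FOS, and later CCND1, the cyclin that opens the G1 to S transition, and the DUSP phosphatases that switch ERK off again. In HER2-amplified breast cells, loss of this output is the usual readout of an effective HER2 kinase inhibitor.

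Among the 7 genes, EGR1 is the classic example of direct ERK control: its promoter is read by serum response factor at CArG boxes, where partner factors are phosphorylated by ERK. The 250 bases upstream of its start in RefSeq (GRCh38.p14, chr5:138465229-138465478, plus strand) are printed because EGR1 is a gene of the score that did not follow the others in the cells described below. Capitals mark the 2 CArG boxes, 105 and 83 bases upstream of the start.
EGR1: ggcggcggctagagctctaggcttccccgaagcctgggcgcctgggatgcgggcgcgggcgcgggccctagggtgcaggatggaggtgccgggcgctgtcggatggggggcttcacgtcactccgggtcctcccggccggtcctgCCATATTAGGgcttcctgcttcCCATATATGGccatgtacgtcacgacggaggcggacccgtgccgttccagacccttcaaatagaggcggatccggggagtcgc
The search covered both strands of these 250 bases only. Sequence farther upstream was not searched, so a gene without a box here may hold one there. The same window of FOS, DUSP6 and PLK2 held no such box, and 407 of 35116 RefSeq promoters (1.16%) held at least 1 and 11 (0.0313%) held at least 2. A match is a description of the letters, not of binding.

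The chosen cells formed the tail of 1 continuous distribution and no separate group. In the neratinib library the members had a median score of 4.78 (quartiles 4.15 and 5.59, highest 10.9) and the remaining cells a median of 0.967 (quartiles 0.463 and 1.64). In the both-drug library the medians were 3.77 in members (quartiles 3.28 and 4.57, highest 16.4) and 0.766 in remaining cells. The limit fell between neighbours, with 3.800 in the lowest member and 3.798 in the highest remaining cell under neratinib, and 2.962 against 2.961 under both drugs.

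**Figure D1:**
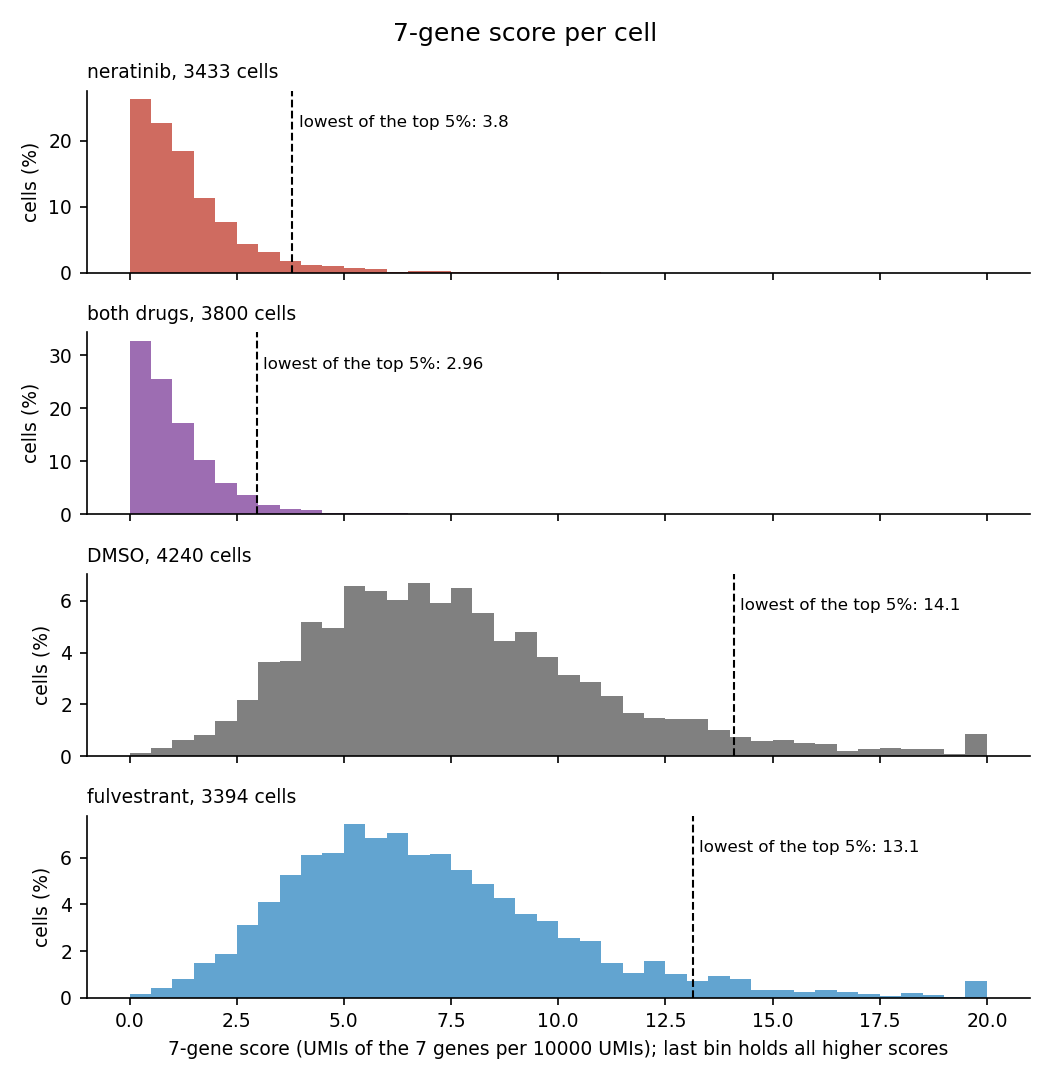
Distribution of the 7-gene score (UMIs of the 7 genes per 10000 UMIs, x axis) as percent of cells (y axis) in each library, with a dashed line at the lowest cell of the top 5%. The neratinib and both-drug cells pile up near 0 with a thin tail past 3.80 and 2.96, while DMSO and fulvestrant cells centre near 7.12 and 6.45.

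Most members stayed below the level of cells without neratinib. There were 19 of 172 members under neratinib (11.0%, interval 6.78 to 16.7%) and 6 of 190 under both drugs (3.16%, interval 1.17 to 6.75%) at or above the median of all DMSO cells, 7.12. The lower quartile of DMSO cells, 5.16, was reached by 64 members under neratinib (37.2%) and 33 under both drugs (17.4%). There were 29 members under neratinib (16.9%) and 13 under both drugs (6.84%) at or above the median of all fulvestrant cells, 6.45. Summed over cells, the members' level of the 7 genes was 69.1% of DMSO cells under neratinib and 55.1% under both drugs.

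The members' scores rested on few molecules. The median member had 10 UMIs of the 7 genes under neratinib and 8 under both drugs, against 2 in the remaining cells of each library. A median of 3 of the 7 genes had a UMI in members, against 2 (neratinib) and 1 (both drugs) in remaining cells. The highest score under neratinib, 10.9, came from a cell with 5486 UMIs and 6 UMIs of DUSP4 and none of the other 6 genes. The next cell, at 10.1, had 26666 UMIs and held 11 UMIs of CCND1, 8 of DUSP4, 5 of EGR1, 2 of PLK2 and 1 of FOS. The highest cell under both drugs, at 16.4, had 14 UMIs of CCND1, 3 of DUSP4 and 1 of PHLDA2 among 10983 UMIs.

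Because a cell can enter the top 5% by counting noise, the UMIs of each cell were divided at random into 2 parts, members were chosen on the first and measured on the second. Under neratinib, members so chosen had a median score of 5.38 in the choosing part and 3.19 in the other, where the remaining cells had 0.955. Under both drugs the medians were 4.31 and 2.12, with 0.781 in the remaining cells. The level measured on the part not used for choosing was 49.8% of DMSO cells under neratinib and 36.0% under both drugs. Of the original members, 115 of 172 (66.9%) and 117 of 190 (61.6%) were chosen again from 1 part of their UMIs. After thinning each cell to 5000 UMIs, 92 (53.5%) and 89 (46.8%) were.

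DUSP4 and CCND1 supplied most of the score. DUSP4, a nuclear phosphatase that inactivates ERK, had 230 CPM (counts of UMIs scaled to 1e+06 UMIs) in members and 50.3 in remaining cells under neratinib, and 215 CPM against 39.7 under both drugs. All DMSO cells had 207 CPM and all fulvestrant cells 206. The members were chosen in part by this gene: in cells chosen by the other 6 genes DUSP4 had 119 and 95.5 CPM, 57.4% and 46.2% of the DMSO level, and where choice and measurement used separate parts of the UMIs it had 82.3% and 70.5%. DUSP4 alone had most UMIs in 89 of 172 members (51.7%) under neratinib and in 120 of 190 (63.2%) under both drugs.

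CCND1, which encodes cyclin D1, had 197 CPM in members and 38.1 in remaining cells under neratinib. Under both drugs it had 115 CPM in members and 26.7 in remaining cells. These were 62.6% and 36.5% of the level in DMSO cells (315 CPM), and the second was 46.8% of the level in fulvestrant cells (246 CPM). In cells chosen by the other 6 genes CCND1 had 34.1% and 19.5% of the DMSO level, and on separate parts of the UMIs 43.4% and 26.8%. CCND1 alone had most UMIs in 62 members (36.0%) under neratinib and in 30 (15.8%) under both drugs.

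PLK2, a polo-like kinase induced by growth factors and stress, had 54.4 CPM in members and 10.3 in remaining cells under neratinib, and 38.4 against 10.2 under both drugs, while DMSO cells had 57.0. PHLDA2, a small PH-domain protein, had 24.1 against 6.14 CPM under neratinib and 25.3 against 5.93 under both drugs, with 59.7 in DMSO cells. Members, chosen in part by these genes, had PLK2 at 95.4% and 67.3% of the DMSO level and PHLDA2 at 40.4% and 42.3%. In cells chosen by the other 6 genes the shares were 67.8% and 43.6% for PLK2 and 25.9% and 26.8% for PHLDA2, and on separate parts of the UMIs 69.7% and 29.3% for PLK2 and 30.2% and 25.5% for PHLDA2. DUSP6, the cytoplasmic ERK phosphatase, rested on 14 UMIs over all members of each library, at 3.79 CPM in members and 1.44 in remaining cells under neratinib and 3.47 against 1.09 under both drugs, with 13.0 in DMSO cells.

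Among the 7 genes, EGR1 and FOS were lowest in members relative to DMSO cells. EGR1, a zinc finger transcription factor, had 6.77 CPM in members and 3.59 in remaining cells under neratinib and 12.6 against 3.79 under both drugs, where DMSO cells had 61.6 and fulvestrant cells 69.9. FOS, a subunit of the AP-1 factor, had 4.06 against 2.23 CPM under neratinib and 5.45 against 2.12 under both drugs, with 40.3 in DMSO cells. Members held 11.0% and 20.5% of the DMSO level of EGR1 and 10.1% and 13.5% of that of FOS. Barcodes of at most 100 UMIs, which hold mostly free RNA, gave a level for comparison. In the neratinib library the members' 6.77 CPM of EGR1 and 4.06 of FOS lay below the 9.72 and 5.98 CPM of these barcodes. All DMSO cells also lay below theirs, with 61.6 against 90.1 CPM of EGR1 and 40.3 against 48.6 of FOS. CPM of these barcodes gives the make-up of free RNA and not its amount in a cell. The comparison therefore cannot decide whether members express EGR1 and FOS. In the both-drug library these barcodes had 7.17 CPM of EGR1 and 3.1 of FOS, below the members' 12.6 and 5.45 CPM. There EGR1 had 4.43 CPM in cells chosen by the other 6 genes and 5.40 on separate parts of the UMIs. FOS had 1.98 and 0.98. All of these lay below these barcodes, which does not decide expression there either. CCND1 and DUSP4 under neratinib had 108 and 119 CPM in cells chosen by the other 6 genes, above the 45.9 and 50.9 CPM of these barcodes.

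**Figure D2:**
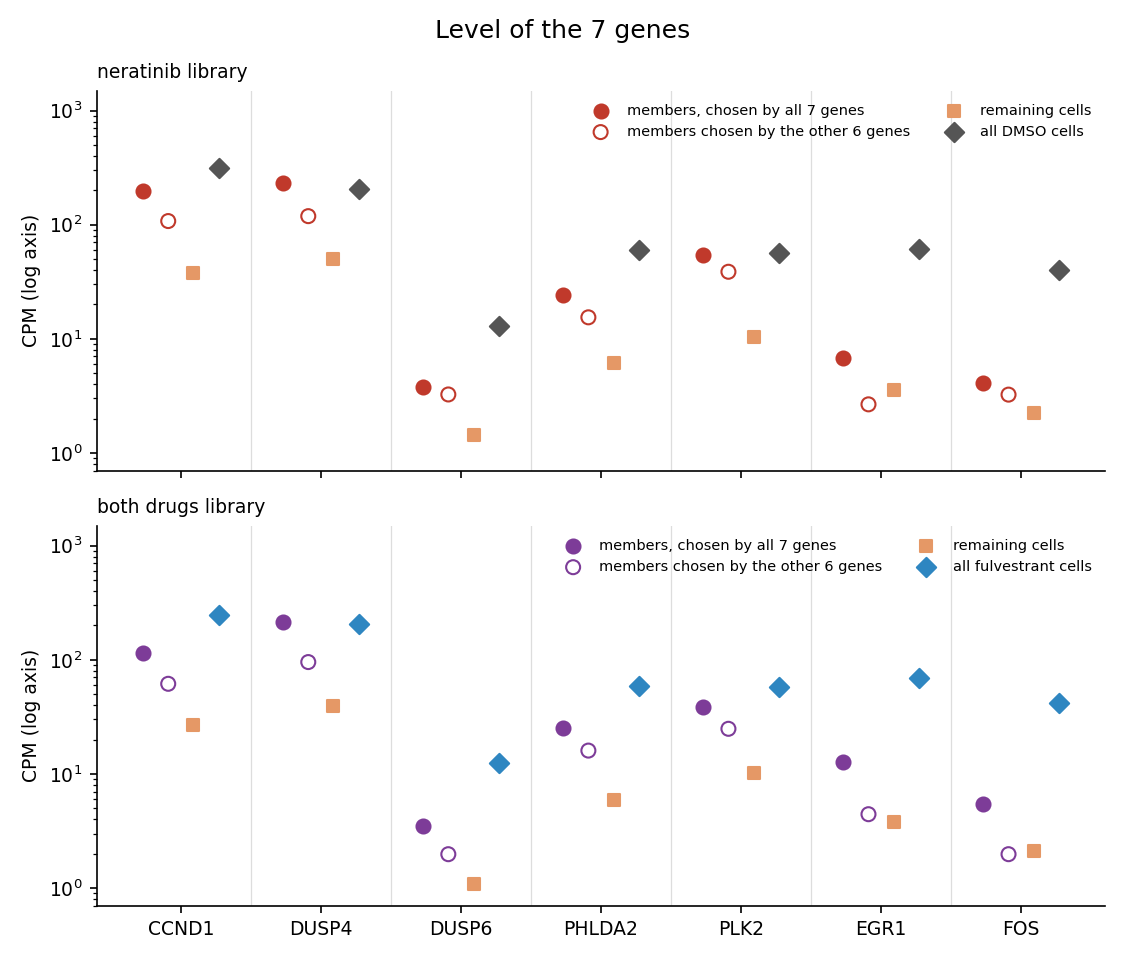
CPM (log axis) of the 7 genes in members, in members chosen by the other 6 genes, in remaining cells and in all cells of the library without neratinib. DUSP4 stands at 230 and 215 CPM in members, which it helped to choose, and at 119 and 95.5 CPM in members chosen by the other 6 genes, while EGR1 and FOS lie at 20.5% of the DMSO level or below.

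To read each gene apart from its own part in the choice, the top 5% were chosen by the other 6 genes. Under neratinib, 4 genes then remained higher with intervals off 0 and at least 57 UMIs in the chosen cells. PLK2 had 38.7 CPM in chosen cells and 11.0 in remaining cells (log2 ratio 1.81, interval 1.55 to 2.07). CCND1 had 108 against 42.3 CPM (log2 1.35, interval 1.19 to 1.50), PHLDA2 15.4 against 6.55 (log2 1.24, interval 0.81 to 1.63) and DUSP4 119 against 55.5 (log2 1.10, interval 0.95 to 1.24). The same 4 genes were higher under both drugs, with log2 ratios of 1.33 for PHLDA2, 1.19 for PLK2 and 1.07 each for CCND1 and DUSP4. When instead the choice was made on 1 part of the UMIs, PLK2 under both drugs had 16.7 CPM in members and 11.5 in remaining cells (log2 0.54, interval -0.01 to 1.04), so its interval crossed 0.

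EGR1 and FOS were not higher in cells chosen without them in the neratinib libraries, within the width of their intervals. EGR1 had 2.66 CPM in cells chosen without it and 3.79 in remaining cells (log2 -0.51, interval -1.58 to 0.39) under neratinib, and 4.43 against 4.17 (log2 0.09, interval -0.68 to 0.77) under both drugs. FOS had log2 ratios of 0.51 (interval -0.46 to 1.36) and -0.21 (interval -1.44 to 0.80), on 12 and 8 UMIs. DUSP6 gave 1.15 (interval 0.16 to 2.01) under neratinib and 0.77 (interval -0.48 to 1.80) under both drugs, on 12 and 8 UMIs. In the DMSO library the same procedure gave log2 ratios of 0.64 for EGR1 (interval 0.49 to 0.79) and 0.53 for FOS (interval 0.33 to 0.72), and in the fulvestrant library 0.71 and 0.74. CCND1, DUSP4, PLK2 and PHLDA2 were thus each higher in cells chosen by the other 6 genes, for PLK2 under both drugs not on separate parts of the UMIs, while EGR1 and FOS in these cells could not be told from the remaining cells.

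**Figure D3:**
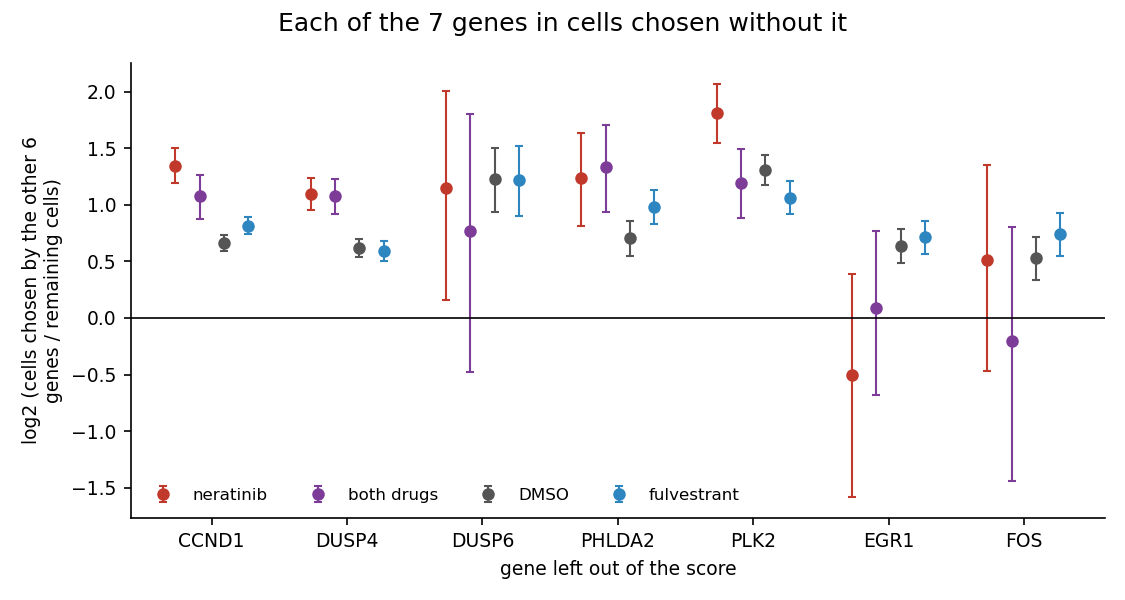
Log2 ratio (y axis) of each of the 7 genes between the top 5% of cells chosen by the other 6 genes and the remaining cells of the same library, with counting intervals. CCND1, DUSP4, PHLDA2 and PLK2 lie above 0 in all 4 libraries, while EGR1 and FOS lie above 0 in DMSO and fulvestrant cells and their intervals cross 0 in the neratinib and both-drug libraries.

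Across other genes, a gene was measured where it had at least 5 CPM over the cells of both neratinib libraries (9000 genes, without the 7) and was called where members and remaining cells differed by at least 0.32 on the log2 scale with an interval off 0. Under neratinib 950 genes (10.6%) were called higher in members and 299 (3.32%) lower. Under both drugs 879 (9.77%) were higher and 204 (2.27%) lower. Scaled by median-of-ratios size factors in place of total UMIs, the split was 667 higher and 465 lower under neratinib and 598 higher and 362 lower under both drugs. In both libraries 383 genes (4.26%) were higher, 50 (0.556%) lower and 3 (0.0333%) called in opposite directions. The 433 genes called the same way made up 34.7% of the calls under neratinib and 40.0% of those under both drugs. The log2 ratios of the libraries had a Pearson r of 0.62 across 4651 genes of at least 20 CPM; genes are not independent replicates, and the libraries share a flow cell but no cells. The median log2 ratio over all measured genes was 0.06 in both libraries. Across 12 alternatives the number of genes higher in both libraries ran from 152 to 402 and of genes lower in both from 14 to 129.

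Many of the genes that neratinib lowers were higher in members. The 100 genes most lowered by both drugs against fulvestrant alone were read in the neratinib library, with which that pair shares no cells: 64 were higher in members and 0 lower, with a median log2 ratio of 0.45. The 100 genes most lowered by neratinib against DMSO were read in the both-drug library, where 63 were higher and 0 lower, with a median of 0.42. Among all measured genes 10.6% (neratinib) and 9.77% (both drugs) were higher and 3.32% and 2.27% lower, with a median of 0.06 in each library. The members covered a median of 38.2% (neratinib) and 40.1% (both drugs) of the log2 distance between remaining cells and the library without neratinib. The lists shared 75 genes, of which 43 were higher in both libraries, against 4.26% of all measured genes. With equal weight of the 7 genes in the score the counts were 40 under neratinib and 32 under both drugs, and within G1 cells 38 under both drugs.

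Fewer of the genes that neratinib raises were called. Under neratinib 0 of 100 were higher in members and 18 lower (median log2 -0.15), and under both drugs 3 were higher and 6 lower (median -0.09). The shares among all measured genes were 10.6% higher and 3.32% lower under neratinib, and 9.77% and 2.27% under both drugs. The numbers lower became 35 and 11 with median-of-ratios scaling and 30 and 15 in the top 2% of cells, and ran from 8 to 35 and from 2 to 20 over 12 alternatives. The median share of the distance to cells without neratinib was 15.1% and 9.76%. Both directions kept their sign in the medians under 12 alternatives in the neratinib library, from 0.26 to 0.57 for the lowered genes and from -0.23 to -0.01 for the raised genes. Under both drugs the lowered genes ran from 0.21 to 0.58, and the raised genes from -0.15 to 0.02, crossing 0.

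TNFRSF12A led the genes that were higher in members. It encodes the receptor of the cytokine TWEAK and is a growth factor inducible gene, and it had 116 CPM in members and 43.1 in remaining cells under neratinib (log2 1.43, interval 1.28 to 1.58). Under both drugs it had 89.1 CPM against 39.1 (log2 1.19, interval 1.03 to 1.35), while all DMSO cells had 134 and all fulvestrant cells 127. SNHG15, a short-lived noncoding host transcript of a small nucleolar RNA, was among the lowered genes with 33.6 against 14.1 CPM under neratinib and 26.2 against 11.1 under both drugs; it was named after its values were seen. MIDN, an immediate early gene that directs nuclear proteins to the proteasome, had 60.4 against 29.6 CPM under neratinib and 51.5 against 27.0 under both drugs, with 70.8 in DMSO cells. For TNFRSF12A, SNHG15 and MIDN the members lay between the remaining cells and all cells of the libraries without neratinib.

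MYC, the transcription factor of growth and ribosome production, had 118 CPM in members and 58.1 in remaining cells under neratinib (log2 1.03, interval 0.88 to 1.17), above the 75.9 CPM of all DMSO cells. Under both drugs it had 14.1 CPM in members and 5.55 in remaining cells (log2 1.35, interval 0.92 to 1.74), against 15.7 in all fulvestrant cells. The call under both drugs was not made with the top 2% of cells (log2 0.77). MYC was thus higher in members of each library, at a lower level wherever fulvestrant was present.

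AREG, amphiregulin, a ligand of EGFR, had 51.2 CPM in members and 23.0 in remaining cells under neratinib and 19.3 against 8.03 under both drugs (log2 1.15 and 1.27), with 69.5 in DMSO and 35.9 in fulvestrant cells. Under both drugs its call was lost with a mitochondrial ceiling of 20% (log2 0.58) and with choice and measurement on separate parts of the UMIs (log2 0.56). AREG was 1 of 7 measured ERBB receptors and ligands and the only one called. ERBB2, which encodes HER2, had 987 CPM in members and 949 in remaining cells under neratinib and 916 against 907 under both drugs. ERBB3, the kinase-poor partner of HER2, had 122 against 134 and 113 against 132 CPM, and EGFR 7.04 against 7.59 and 6.69 against 7.88 CPM, none of them called. The members' HER2 transcript level was thus close to that of the remaining cells in both libraries. The drug efflux transporters ABCC5 (37.1 against 40.4 CPM under neratinib, 41.6 against 42.5 under both drugs) and ABCC3 (49.0 against 41.6 and 46.8 against 40.5) were the 2 measured of 8 listed, and neither was called.

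RND3, which loosens the actin skeleton, had 43.3 CPM in members and 20.8 in remaining cells under neratinib and 44.1 against 21.0 under both drugs, with 33.9 in DMSO cells. BAMBI, a decoy receptor of TGF-beta signalling, had 228 against 136 and 219 against 137 CPM, with 171 in DMSO and 204 in fulvestrant cells. Both genes were therefore higher in members than in cells without the drug. The other genes among the 12 named by rank were SHISA2, BASP1, AMD1, which makes a precursor of polyamines, IFRD1, IER5L, DDX5, an RNA helicase, and CDV3, with log2 ratios between 0.68 and 0.99. Of 60 named genes called the same way in both libraries, 11 kept the call in both under all 12 alternatives that bear on them: AMD1, BASP1, DDX5, GADD45A, IER5L, IFRD1, MIDN, RND3, RRS1, TNFRSF12A and TXNIP. Some calls given below were far less settled: under both drugs HSPA5 lost its call in 11 of the 12, ANKRD37 and FGFR1 in 10, MSX2 and VCL in 9, HEXIM1 in 8 and BCL2L11 and TBX3 in 7. Under neratinib BIK lost its call in 10, FGFR1 in 8 and ANKRD37, TNFSF10 and VCL in 7.

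**Figure D4:**
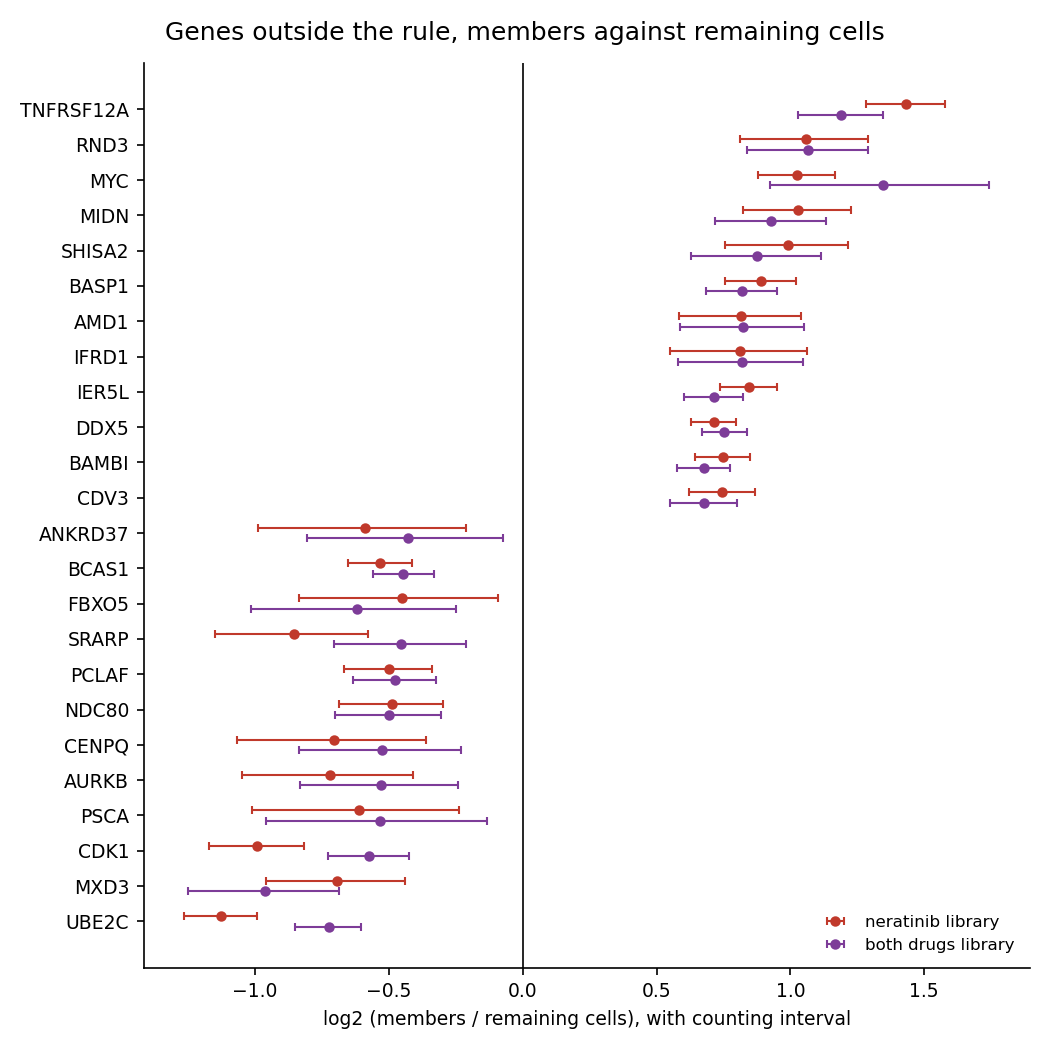
Log2 ratio of members over remaining cells (x axis) with counting intervals for the 12 highest and 12 lowest genes of at least 20 CPM called the same way in both libraries. TNFRSF12A, RND3, MYC and MIDN lie near 1 in each library, and the lowest include UBE2C, MXD3 and CDK1.

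Genes of the ERK cascade itself were mostly not called, while ERK targets outside the score were higher in sum. Of 22 ERK target genes outside the score 3 were measured: IER3, an early response gene, had 56.9 CPM in members and 44.0 in remaining cells under neratinib and 71.3 against 50.6 under both drugs, with 96.1 in DMSO cells, and was called in both. SPRED2, an inhibitor of RAF activation, had 18.7 against 14.7 and 20.6 against 14.1 CPM, and TRIB1, a pseudokinase scaffold, 21.4 against 18.5 and 23.3 against 18.3; both were called under both drugs alone. IER3 lost its call under neratinib with median-of-ratios scaling, the top 10%, G1 cells alone and the score without CCND1, and under both drugs with the top 2% and with separate parts of the UMIs. The UMIs of all 22 genes summed to 135 CPM in members and 102 in remaining cells under neratinib (log2 0.41, interval 0.28 to 0.54). Under both drugs the sums were 154 against 108 CPM (log2 0.51, interval 0.39 to 0.63), where all DMSO cells had 196. This sum was also higher in cells chosen by the same rule without neratinib. There the log2 ratio was 0.78 in DMSO cells (interval 0.70 to 0.86) and 0.67 in fulvestrant cells (interval 0.59 to 0.76). A higher sum was therefore no trait of the members alone. Of 20 measured RAS and MAPK pathway genes, 3 were higher in each library and 0 lower, where 10.6% and 9.77% of all measured genes were higher. The medians of these 20 genes were 0.10 and 0.12. Among them RPS6KA3, which encodes the ERK-activated kinase RSK2 (25.4 against 16.2 and 25.3 against 16.2 CPM), was higher in both.

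Of 17 measured immediate early genes outside the score, 6 were higher under neratinib and 5 under both drugs, against 10.6% and 9.77% of all measured genes. Of the 17 genes 0 were lower, and the medians were 0.12 and 0.21. Besides MYC, the genes called in both libraries were KLF10 (14.3 against 7.39 and 8.67 against 4.56 CPM), a TGF-beta inducible repressor, IER5L (209 against 117 and 179 against 109 CPM) and NR4A1, a nuclear receptor (13.0 against 8.73 and 14.6 against 8.65 CPM). With the same rule in cells without neratinib, 13 of these 17 genes were higher in DMSO cells and 11 in fulvestrant cells. Of all measured genes 10.1% and 8.3% were higher there.

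Ribosome assembly genes encode nucleolar factors that process ribosomal RNA, and many are MYC targets. Of 27 measured, 14 were higher in members under neratinib and 13 under both drugs, where 10.6% and 9.77% of all measured genes were, 0 were lower and 10 were higher in both, with median log2 ratios of 0.38 and 0.34. RRS1, a ribosome assembly factor, had 23.6 CPM in members and 9.49 in remaining cells under neratinib and 18.3 against 6.47 under both drugs (log2 1.31 and 1.50), with 40.9 in DMSO and 24.9 in fulvestrant cells. NOP16 had 19.5 against 9.39 and 11.9 against 8.43 CPM, PPAN 13.0 against 7.34 and 9.66 against 5.95, and PNO1 17.1 against 9.91 and 15.8 against 10.1. NOP16 lost its call under both drugs in 6 of 12 alternatives and PPAN in 5.

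Of 24 measured estrogen receptor targets, 11 were higher and 0 lower under neratinib (median 0.30), and 8 higher and 1 lower under both drugs (median 0.25), against the same 10.6% and 9.77% of all genes higher; 6 were higher in both. STC2, a secreted stanniocalcin, had 14.9 against 8.01 CPM under neratinib and 6.44 against 2.94 under both drugs. TSKU had 63.6 against 45.3 and 13.4 against 7.26 CPM, MSX2, a homeobox factor, 56.6 against 34.1 and 18.3 against 13.9, and OLFM1 21.7 against 15.4 and 21.5 against 13.9. ESR1, the estrogen receptor gene, had 21.1 against 18.1 CPM under neratinib and 16.1 against 12.5 under both drugs and was not called. Among 22 luminal genes 7 were higher under neratinib and 3 under both drugs, and 3 were called in both libraries: GATA3, the luminal master factor (202 against 132 and 247 against 139 CPM), TBX3 and TFAP2A.

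FOXO factors, which AKT holds out of the nucleus, drive genes of arrest and cell death. Over all measured genes 10.6% were higher and 3.32% lower under neratinib, and 9.77% and 2.27% under both drugs. Of 27 measured FOXO targets, 3 were higher and 2 lower in members under neratinib (median -0.14) and 4 higher and 1 lower under both drugs (median 0.03). Those higher in both were TXNIP, which restrains glucose uptake (157 against 101 and 166 against 102 CPM), GADD45A, a growth arrest gene (28.7 against 15.6 and 27.7 against 17.9), and BCL2L11, which encodes the death factor BIM (20.3 against 14.6 and 19.6 against 14.3). BCL2L11 reversed without DUSP4 in the score, to -0.10 and -0.14. TXNIP and GADD45A were also called higher in the top 5% of DMSO cells (log2 0.43 and 0.50) and of fulvestrant cells (0.63 and 0.44). There 10 of the 27 FOXO targets were higher and 1 lower in DMSO cells, and 8 higher and 1 lower in fulvestrant cells. The shares over all measured genes were 10.1% higher and 8.49% lower in DMSO cells, and 8.3% and 6.59% in fulvestrant cells. HBP1, a repressor of cell cycle genes that stood at 26.8 CPM in DMSO cells, had 100 CPM in members and 125 in remaining cells under neratinib and 104 against 127 under both drugs (log2 -0.32 and -0.28, not called). TNFSF10, the death ligand TRAIL, had 36.0 against 49.1 CPM under neratinib (called lower) and 42.3 against 41.2 under both drugs; the first turned to 0.44 with equal weight of the 7 genes. BRD8, a subunit of the TIP60 acetyltransferase complex, had 53.1 against 59.3 and 55.2 against 59.1 CPM, not called, with 23.3 in DMSO cells.

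Cell cycle genes gave a mixed picture. By S and G2M gene scores, 64 of 172 members (37.2%, interval 30.0 to 44.9%) were in G2M under neratinib, against 866 of 3261 remaining cells (26.6%, interval 25.0 to 28.1%), and 15 (8.72%) against 514 (15.8%) were in S. Under both drugs 57 of 190 members (30.0%, interval 23.6 to 37.1%) and 845 of 3610 remaining cells (23.4%, interval 22.0 to 24.8%) were in G2M, so the intervals overlap there. After thinning all cells to 5000 UMIs, which left out none, the G2M shares were 40.1% against 29.1% and 34.2% against 26.6%. The median depth was 20683 UMIs in members and 22593 in remaining cells under neratinib and 20609 against 22320 under both drugs.

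Yet of 52 measured G2M genes, 4 were higher and 19 lower in members under neratinib (median -0.20) and 6 higher and 11 lower under both drugs (median -0.04). The shares over all measured genes were 10.6% and 9.77% higher and 3.32% and 2.27% lower. UBE2C, the ubiquitin-conjugating partner of the anaphase complex, had 122 CPM in members and 266 in remaining cells under neratinib and 139 against 230 under both drugs (log2 -1.13 and -0.73). CDK1, the kinase of mitotic entry, had 72.3 against 144 and 90.4 against 135 CPM, AURKB 23.3 against 38.4 and 24.5 against 35.4, and PSRC1 7.85 against 12.9 and 5.20 against 11.2. CDC20 (74.4 against 53.5 and 68.6 against 44.5 CPM), LBR and RANGAP1 were the 3 G2M genes higher in both libraries and were named after their values were seen. UBE2C was not called within G1 cells alone in either library. Within G1 cells alone, CDK1 stood at log2 0.42 and 0.58, NDC80 at 0.69 and 0.29, PSRC1 at 0.60 under neratinib and AURKB at 0.93 under both drugs, the reverse of the direction over all cells.

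Other genes that were lower in both libraries were MXD3, a MYC antagonist (34.4 against 55.6 and 27.0 against 52.6 CPM), BCAS1 (159 against 230 and 162 against 220 CPM), SRARP (28.7 against 51.9 and 35.4 against 48.5 CPM), CENPQ, PCLAF, FBXO5, PSCA and ANKRD37. Of 41 measured S phase genes, 0 were higher and 3 lower under neratinib and 1 higher and 2 lower under both drugs, none in both. All measured genes had 10.6% and 9.77% higher and 3.32% and 2.27% lower. PCNA, the replication clamp, had 162 against 187 and 171 against 198 CPM. Of 13 cyclin D, CDK and RB pathway genes only E2F3 was called in both, with 8.93 against 4.54 and 9.66 against 5.27 CPM.

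Stress and other lists were called in part. Over all measured genes 10.6% were higher and 3.32% lower under neratinib, and 9.77% and 2.27% under both drugs. A count near these shares is no trait of its list. Of 23 measured ATF4 targets 7 were higher and 0 lower under neratinib and 5 higher and 1 lower under both drugs (medians 0.14 and 0.11), with DDIT3, the stress factor CHOP, at 56.3 against 26.3 and 42.8 against 31.9 CPM, CEBPB at 149 against 91.0 and 122 against 88.8, and TRIB3 and CEBPG also higher in both. DDIT3 lost its call under both drugs in 6 of 12 alternatives. Of 15 heat shock genes 4 and 3 were higher and 0 lower, with HSPH1 (162 against 110 and 174 against 120 CPM), HSPA4 and HSPA5 in both. Of 20 hypoxia and glycolysis genes 4 and 3 were higher and 1 lower in each library; VEGFA (18.7 against 9.79 and 15.4 against 8.94 CPM) and EGLN3 were higher and ANKRD37 lower in both. Of 4 measured basal and mesenchymal genes 1 was higher under neratinib (median 0.23), and 1 was higher and 1 lower under both drugs (median -0.07). The higher one was VIM, vimentin, with 83.9 against 54.0 and 75.3 against 53.9 CPM. Of 9 other receptor kinases 3 were higher under neratinib and 1 was higher and 1 lower under both drugs, with FGFR1 (20.3 against 15.2 and 19.1 against 14.8 CPM) higher in both. Of 14 apoptosis genes 2 and 6 were higher and 0 lower, with BIK at 27.6 against 21.4 and 25.7 against 19.3 CPM. Of 8 SRF and YAP targets 2 and 1 were higher and 0 lower, with VCL at 33.3 against 25.0 and 34.7 against 27.0 CPM. Of 24 TIP60 complex and BET genes 1 was higher and 3 lower under neratinib and 2 were higher and 0 lower under both drugs, with HEXIM1 (23.6 against 16.4 and 24.8 against 19.0 CPM) higher in both. None of 14 p53 targets (BTG2 80.9 against 83.4 and 95.6 against 89.4 CPM), 24 sterol and lipid genes (FDPS 218 against 234 and 229 against 243 CPM) and 6 interferon genes (HLA-C 192 against 190 and 175 against 187 CPM) was called in both. Under neratinib 0 genes of these lists were called. Under both drugs 4 p53 targets and 2 sterol and lipid genes were higher and 0 lower.

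The same rule was also applied to the libraries without neratinib. The top 5% were 212 DMSO and 170 fulvestrant cells, and 906 genes (10.1%) were higher and 764 (8.49%) lower in DMSO cells and 747 (8.3%) higher and 593 (6.59%) lower in fulvestrant cells. Of the members, 54.1% under neratinib and 55.8% under both drugs were in G1, against 77.8% of the chosen DMSO cells and 73.5% of the chosen fulvestrant cells. In the cells chosen without neratinib, of 52 G2M genes 50 and 44 were lower, of 41 S phase genes 34 and 35 were lower, and 17 of 20 hypoxia and glycolysis genes were higher in each. Of the ribosome assembly genes, members had 14 and 13 higher and 0 lower under neratinib and both drugs, against 1 higher and 4 lower in DMSO cells and 0 higher and 5 lower in fulvestrant cells. Whether these profiles differ could not be tested with 1 library per group.

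**Figure D5:**
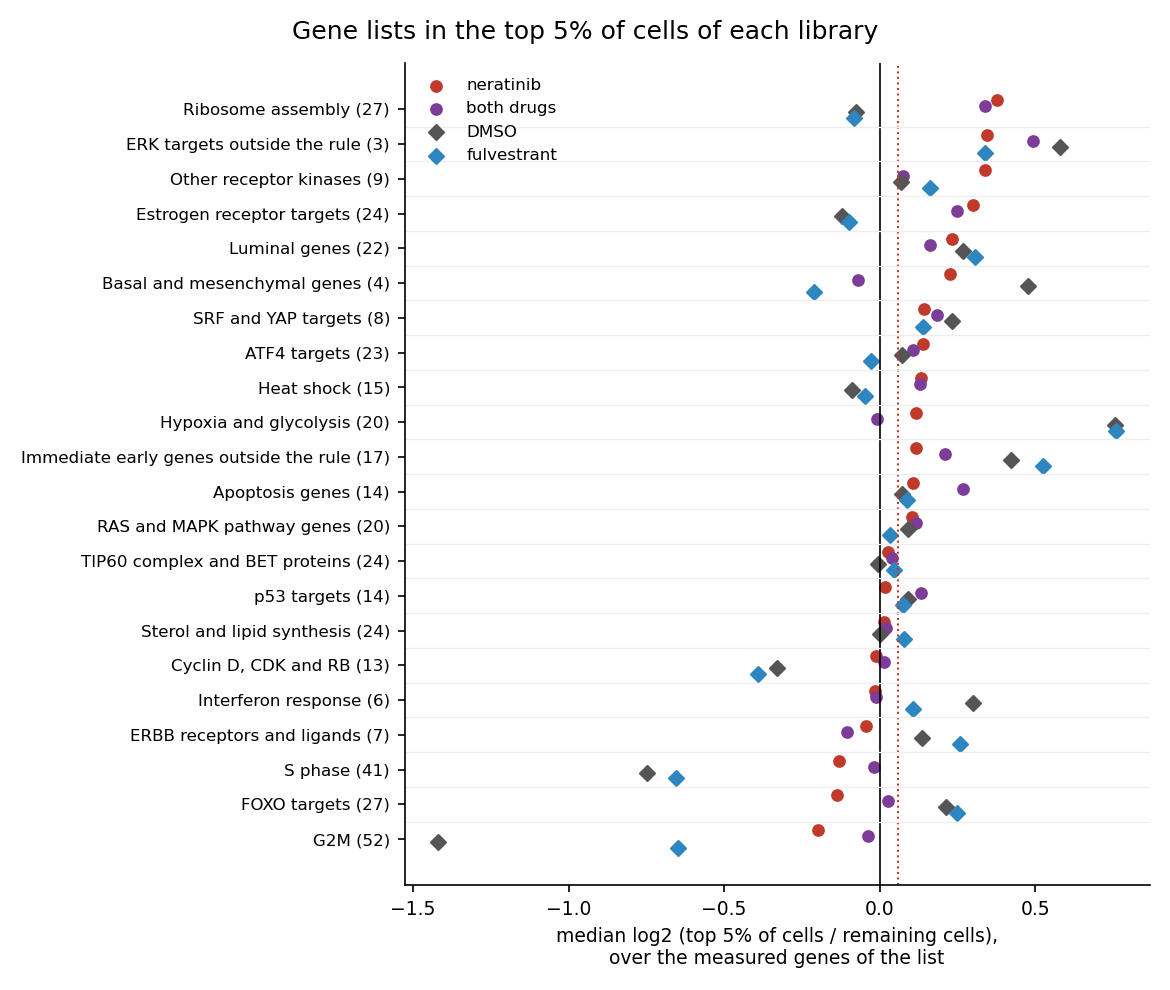
Median log2 ratio of the top 5% of cells over the remaining cells (x axis) for each gene list with at least 3 measured genes (number in brackets), in the neratinib, both-drug, DMSO and fulvestrant libraries; the dotted line is the median of all genes under neratinib, 0.06. Ribosome assembly lies at 0.38 and 0.34 with neratinib and at -0.08 in both libraries without it, and G2M lies at -0.20 and -0.04 against -1.42 and -0.65.

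Depth and mitochondrial share of members were close to those of the remaining cells. The median mitochondrial share was 20.4% in members and 21.0% in remaining cells under neratinib and 20.2% against 21.1% under both drugs, higher than the 16.2% of DMSO and 16.6% of fulvestrant cells. With the remaining cells weighted to the members by depth, mitochondrial share and phase, the median log2 ratio of the genes lowered by neratinib was 0.40 under neratinib and 0.38 under both drugs. Luminal and HER2 markers marked members as BT474 cells, with KRT8 at 1161 CPM in members and 950 in remaining cells and GRB7, which is co-amplified with HER2, at 542 against 600 under neratinib. Markers of non-epithelial cells were low: of 5 fibroblast markers 4 were at 0 in members and COL1A1 had 12.2 against 10.6 CPM under neratinib and 10.9 against 10.1 under both drugs, 5 immune markers summed to 1.90 and 1.73 CPM in members, and 4 endothelial markers to 1.62 and 1.49 CPM.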

How the data were processed

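The authors deposited raw UMI counts, unfiltered, for 33538 genes in 4 libraries; per the submitters' processing notes the tool was Cell Ranger 3.1.0 and the build hg19. Barcodes were assigned to libraries by their numeric suffix, read against the number with which each sample title opens. Over all barcodes the libraries held 89559704 (neratinib), 99053622 (both drugs), 90336164 (fulvestrant) and 110511222 (DMSO) UMIs. Cells had a median of 22203 to 23293 UMIs, and the mitochondrial ceiling removed 61 to 91 barcodes per library. Doublets were not called and were kept; leaving out the 5% deepest cells was an alternative.

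Counts of a gene were summed over members and over remaining cells and divided by total UMIs (CPM). The interval of a ratio is the exact conditional binomial interval of 2 Poisson counts, and shares have exact Clopper-Pearson intervals, both at 95%. UMIs of 1 library are not replicates, so the intervals cover counting error only. Phases used S and G2M gene scores from scanpy 1.11.5. Genes that share a symbol (48) were kept apart by identifier.

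Genes named were the 7 genes, a fixed set of 9 (MYC, ESR1, ERBB2, ERBB3, EGFR, AREG, BRD8, TNFSF10 and HBP1), up to 4 per list with the greatest mean ratio among those called in both libraries (otherwise the 2 with the highest CPM), and the 12 highest and 12 lowest genes of at least 20 CPM. The members and the 26 gene lists were chosen with earlier results of these data known.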

Additional observations from a re-analysis of the deposited data

Results flagged for a closer look

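Some genes and lists stood on opposite sides of 0 in the top 5% of cells with neratinib and in the top 5% of cells without it. For none of them was the difference tested, since each group had 1 library. ANKRD37, a hypoxia-inducible gene, had a log2 ratio of -0.59 under neratinib and -0.43 under both drugs, against 0.96 in DMSO and 1.08 in fulvestrant cells. PSCA, a GPI-anchored surface antigen, had -0.61 and -0.53, against 1.09 and 0.66. Their negative values turned with equal weight of the 7 genes (ANKRD37 under both drugs, PSCA under neratinib) or without DUSP4 in the score (PSCA under both drugs).

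The median of the estrogen receptor target list was 0.30 under neratinib and 0.25 under both drugs, against -0.12 in DMSO and -0.10 in fulvestrant cells. The ribosome assembly list had medians of 0.38 and 0.34, against -0.08 in each library without neratinib. The heat shock list had 0.13 in each neratinib library, against -0.09 and -0.05.

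The genes called in opposite directions in the 2 neratinib libraries were PLXNA1, a semaphorin co-receptor, at -1.06 under neratinib and 0.63 under both drugs, CYB5R4 at 0.38 and -0.38, and NAT10, an RNA acetyltransferase, at 0.44 and -0.60. These differences were not tested either.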

How the results depend on the processing

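No paired analysis was possible because each group had 1 library. Pairs of values without a group name are for neratinib and then for both drugs. Genes higher in both libraries numbered 383 and became 206 with a mitochondrial ceiling of 20%, 153 with equal weight of the 7 genes, 152 after thinning, 191 with choice and measurement on separate parts of the UMIs, 195 in G1 cells, 239 without CCND1, 243 without DUSP4 and 51 at 50 CPM or more. Genes lower in both numbered 50 and became 96 with median-of-ratios scaling, 100 with the 20% ceiling, 129 with equal weight, 18 after thinning, 33 on separate parts, 29 with weighted remaining cells, 14 in G1 cells, 85 without DUSP4, 32 in the top 2% and 10 at 50 CPM. Within single libraries, genes higher (950 and 879) became 538 and 502 after thinning, 113 and 84 at 50 CPM, and 558 under both drugs with equal weight. Genes lower (299 and 204) became 465 and 362 with median-of-ratios scaling, 34 and 26 at 50 CPM, 177 under neratinib in G1 cells and 347 under both drugs with the 20% ceiling. Neratinib-lowered genes higher in members (64 and 63) became 40 and 32 with equal weight and 38 under both drugs in G1 cells. Neratinib-raised genes lower in members (18 and 6) became 35 and 11 with median-of-ratios scaling, 30 and 15 in the top 2%, 8 and 12 without DUSP4, 9 and 2 in G1 cells, 8 under neratinib in the top 10% and with equal weight, 9 under neratinib after thinning and 20 under both drugs with the 20% ceiling. With that ceiling, members under both drugs had 39.7% in G2M (30.0% as reported) and 6.85% in S (14.2%).

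The members' summed level of the 7 genes as a share of DMSO cells (69.1% and 55.1%) became 49.8% and 36.0% on separate parts and 54.4% and 40.6% after thinning, and as a share of fulvestrant cells (75.3% and 60.1%) 54.3% and 39.3% on separate parts and 59.3% and 44.3% after thinning. Direction turned for some named genes. In G1 cells CDK1 was 0.42 and 0.58, NDC80 0.69 and 0.29, PSRC1 0.60 under neratinib, AURKB 0.93 and BCL2L11 -0.23 under both drugs. With equal weight TNFSF10 was 0.44 and PSCA 0.022 under neratinib, and ANKRD37 0.105, NOP16 -0.13 and BCL2L11 -0.028 under both drugs. Without DUSP4 BCL2L11 was -0.10 and -0.14, FGFR1 -0.030 and PSCA 0.19 under both drugs. Under both drugs VIM was -0.059 without CCND1, MSX2 -0.29 after thinning, and FOS -1.17 on separate parts and -0.21 when chosen by the other 6 genes, by which EGR1 under neratinib was -0.51. The cause was not tested, apart from the 50 CPM minimum, which tests fewer genes. Members hold few UMIs of DUSP6, EGR1 and FOS, which limits what can be read for them.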
